A study of Mus musculus with 28 samples.

Results

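Genes of the Wnt pathway were followed in the skin of mice with and without chronic graft-versus-host disease, a condition in which transferred donor lymphocytes attack the tissues of the recipient. The members were chosen by symbol from the array annotation: the Wnt ligands, the Frizzled receptors, the secreted Sfrp and Dkk inhibitors, and named co-receptors, R-spondins, transcription factors and feedback regulators. The rule found 51 of 19532 named genes, and 43 of them were measured in enough mice to be tested. Tcf7 is not analysed here.

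Allo mice had received spleen cells of the allogeneic strain B10.D2, syn mice had received those of the syngeneic strain BALB/c, and skin was taken 2 weeks after transfer. All recipients were on the BALB/c background and lacked Rag2, which T and B cells need to form, so recipients of all 6 groups lacked mature T and B cells of their own by genotype, while innate lymphocytes form without Rag2. Rag2-/- recipients comprised 5 allo and 4 syn mice. Recipients that also lacked Il13, which encodes the cytokine IL-13, comprised 4 allo and 4 syn mice. Recipients that also lacked Il4ra, the receptor chain through which both IL-4 and IL-13 signal, comprised 4 allo and 3 syn mice. The labels name these deletions for the recipients and describe the donors by strain alone. The labels used here do not state sex, age or hair cycle stage. Skin RNA was hybridised against Universal Mouse Reference RNA, a purchased pool of cell line RNA, and each level below is log2 of skin over reference for 1 mouse. A level of 0 means equal signal in both, and levels that differ by 1 differ 2-fold.

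Wnt ligands are secreted, lipid-modified proteins that bind Frizzled receptors together with the co-receptors Lrp5 or Lrp6. In the canonical branch this stabilises beta-catenin (Ctnnb1), which enters the nucleus and acts with the TCF and LEF factors on targets such as Axin2. Frizzled receptors also act without beta-catenin, for example in planar cell polarity. In skin the pathway is known for its part in hair follicle formation and in the growth phase of the hair cycle, and it also acts in the basal epidermis and in dermal fibroblasts.

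Promoter sequences are shown for the members called lower with allogeneic cells in at least 2 kinds of recipient. Whether these genes are regulated together was not tested. Of these 6 genes, Fzd1, Sfrp2, Tcf7l1 and Wnt9a had an entry in the RefSeq promoter table (build GRCm38.p6), and Fzd3 and Fzd6 did not. Among all 51 members, 34 had an entry. The 250 bases before each transcription start were searched for CTTTGA and CTTTGT, the core letters bound by TCF and LEF factors, on both strands. Matches are in capitals, and each line runs 5′ to 3′ on the strand of the gene.
Fzd1, chr5:4758217-4758466, minus strand: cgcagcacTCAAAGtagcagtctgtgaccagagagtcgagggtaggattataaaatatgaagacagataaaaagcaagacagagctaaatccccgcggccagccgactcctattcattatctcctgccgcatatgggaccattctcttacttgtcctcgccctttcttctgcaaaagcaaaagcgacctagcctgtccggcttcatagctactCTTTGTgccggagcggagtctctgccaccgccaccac
Sfrp2, chr3:83766071-83766320, plus strand: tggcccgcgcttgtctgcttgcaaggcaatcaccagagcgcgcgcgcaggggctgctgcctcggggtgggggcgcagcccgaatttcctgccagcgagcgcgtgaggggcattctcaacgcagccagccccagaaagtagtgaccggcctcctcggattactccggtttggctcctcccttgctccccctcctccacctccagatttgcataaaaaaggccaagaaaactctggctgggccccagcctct
Tcf7l1, chr6:72789046-72789295, minus strand: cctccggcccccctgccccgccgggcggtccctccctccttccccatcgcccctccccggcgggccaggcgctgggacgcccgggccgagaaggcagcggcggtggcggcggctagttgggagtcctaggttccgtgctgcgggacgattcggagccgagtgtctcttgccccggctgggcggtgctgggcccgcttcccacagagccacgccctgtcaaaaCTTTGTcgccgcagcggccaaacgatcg
Wnt9a, chr11:59306680-59306929, plus strand: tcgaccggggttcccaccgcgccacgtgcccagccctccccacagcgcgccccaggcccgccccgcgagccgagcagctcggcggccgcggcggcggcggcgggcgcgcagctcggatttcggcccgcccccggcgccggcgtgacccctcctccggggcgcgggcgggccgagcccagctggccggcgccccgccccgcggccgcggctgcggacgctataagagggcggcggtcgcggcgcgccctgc
Fzd1 held 2 matches, at -242 to -237 on the opposite strand and at -37 to -32 on its own strand, counted back from the start. Tcf7l1 held 1 match at -28 to -23, and the windows of Sfrp2 and Wnt9a held none of these letters. Over all 32851 promoters of the table, 27.6% held at least 1 match, and 10 of the 42 promoters listed for the members did. A match is a stretch of letters and was not tested as a binding site.

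After the sign of the values was set, in part from epidermal genes, 17 of 17 of these lay above 0 (median 5.49), which is therefore no separate check of the tissue. Between 2.41% and 36.8% of the values of an array were exactly 0 and were treated as not measured. Mice 6229 and 6234, both syn and Il13-deficient, stood apart by high values of some, not all, hair follicle genes. The mean of Msx2 and S100a3, the 2 hair follicle markers measured in every mouse, was 4.80 and 5.61 in these mice, against 2.01 and 2.92 in the other syn Il13-deficient mice. Allo Il13-deficient mice had -0.29 to 0.20, and among the other groups the highest values were 3.45 in mouse 5701 and 1.90 in mouse 6152, both allo Rag2-/-. Krt25, Krt71 and Tchh, other markers of the list, were high in all syn Il13-deficient mice. Krt71 lay at 6.05, 6.07, 7.28 and 7.30 in 6225, 6229, 6230 and 6234, and at 6.31 in 5701 and 6.26 in 6152. Fits without 6229 and 6234 thus still hold syn mice with high hair follicle genes. Allo mouse 6224 (Il13-deficient) was the lowest of its group in 26 of 37 members, and allo mouse 5704 (Rag2-/-) in 15 of 35. For the members, results that rest on these mice are given with and without them. The further pathway genes, target genes and cell type markers are given for all mice only. The labels do not say whether the mice came from separate experiments. The p-values therefore set each difference against the spread between these mice alone, pooled over the 6 groups. In such bulk samples, fewer cells of a type and less RNA per cell cannot be told apart.

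Wnt pathway members were lower rather than higher with allogeneic cells wherever they passed the test, with Wnt10a in Il4ra-deficient recipients as the exception. Several Frizzled receptors, the ligand gene Wnt9a, the secreted inhibitor gene Sfrp2 and the factor gene Tcf7l1 fell in more than 1 kind of recipient. In Rag2-/- recipients 9 of 43 members were lower and 0 higher (limma, adjusted p under 0.05 over all 14783 genes tested). This share of 20.9% stands beside 15.6% of all genes tested that were lower and 12.6% that were higher. In Il13-deficient recipients 12 of 43 were lower and 0 higher, or 27.9%, beside 7.11% of all genes lower and 9.19% higher. That count rested in part on single mice: it was 6 without 6224 or without 6234, 7 without 6223 or without 6229, and 3 of 41 without both 6229 and 6234, beside 3.53% of all genes lower in the same fit. For the fits without 1 mouse the share of all genes is not given here. Whether calls were lost among the members more than among all genes cannot be read from them. In Il4ra-deficient recipients 2 of 43 were lower and 1 higher, close to the 3.31% of all genes lower and 5.91% higher. Without 4533, 5718 or 5717 neither lower member passed, and the higher member Wnt10a was the 1 call left. The median donor difference of the 43 members was -0.36 in Rag2-/-, -0.63 in Il13-deficient and -0.15 in Il4ra-deficient recipients, against -0.08, -0.05 and -0.05 for all genes tested. The recipients share no mice in these comparisons, but the members were chosen with results of these data known.

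**Figure D1:**
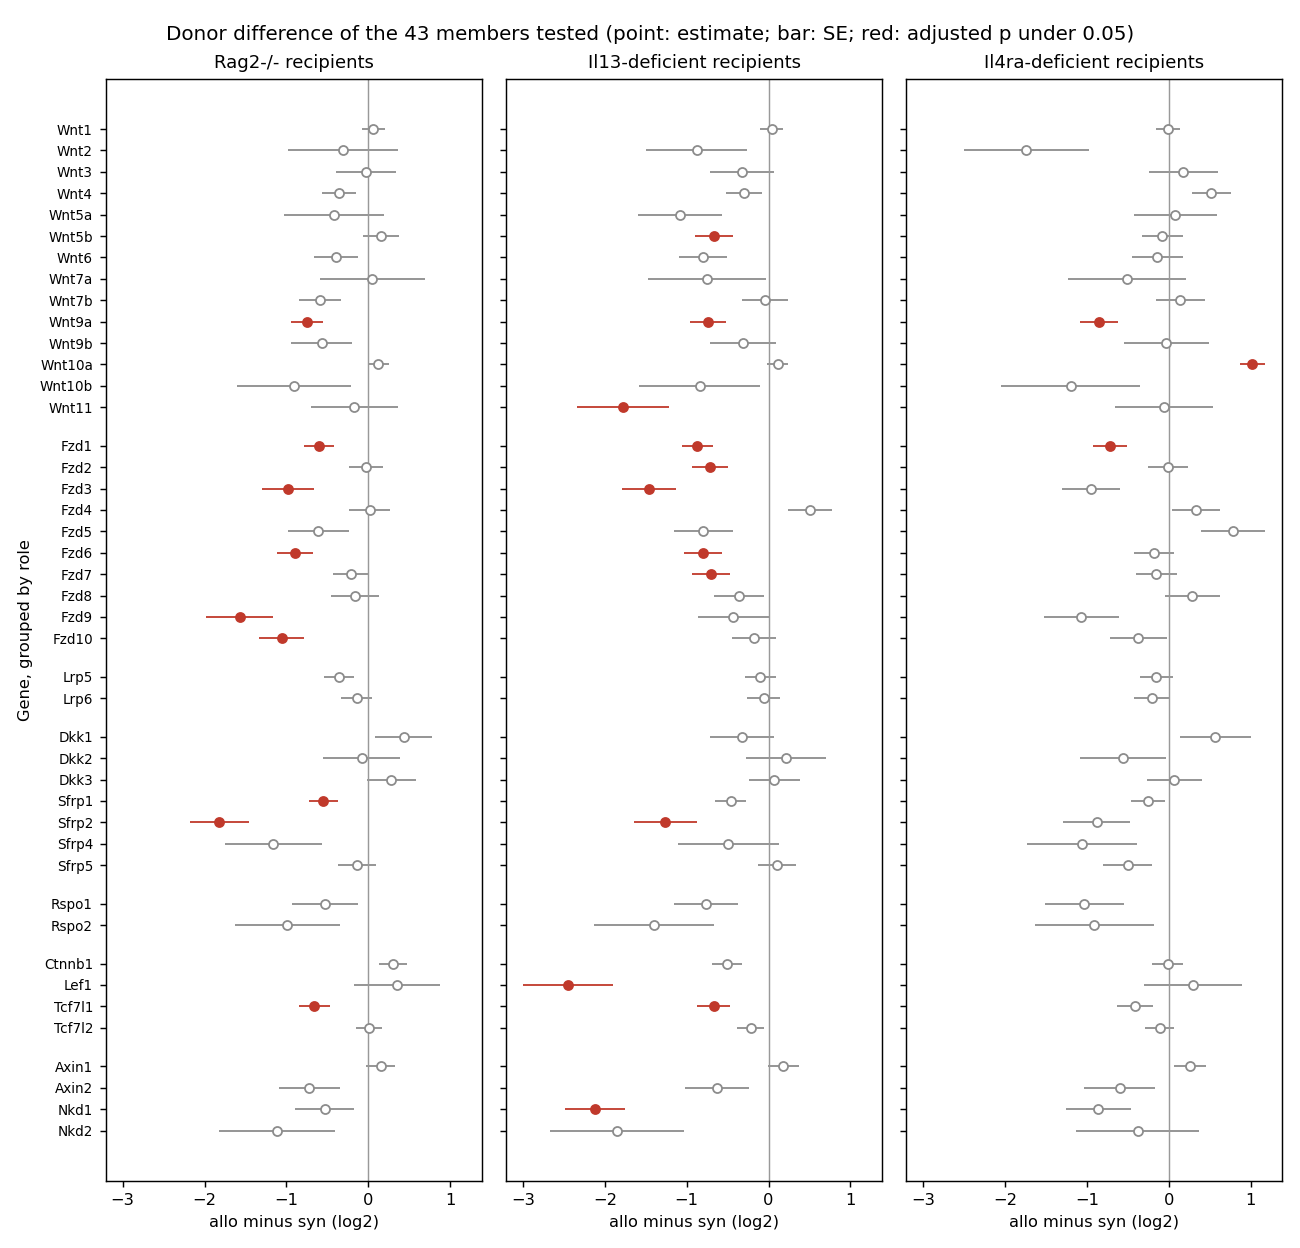
Donor difference (allo minus syn, log2, horizontal axis) of each of the 43 members tested, grouped by role from ligands at the top to feedback regulators at the bottom, in 3 kinds of recipient. Points are limma estimates, bars are SE, and filled red points passed the test; all 9 in Rag2-/- and all 12 in Il13-deficient recipients lie left of 0, and Wnt10a is the 1 filled point right of 0.

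The Frizzled receptors, which bind Wnt ligands at the cell surface, held the most calls of any role. In Rag2-/- recipients 5 of 10 were lower with allogeneic cells (Fzd1, Fzd3, Fzd6, Fzd9 and Fzd10), and in Il13-deficient recipients 5 of 10 (Fzd1, Fzd2, Fzd3, Fzd6 and Fzd7). Of all genes tested, 15.6% and 7.11% were lower in these comparisons. Without 6229 and 6234, Fzd3 alone of the 10 passed in Il13-deficient recipients, beside 3.53% of all genes lower. In Il4ra-deficient recipients Fzd1 alone among the 10 passed, beside 3.31% of all genes lower. The median difference over the 10 receptors was -0.60, -0.71 and -0.17 in Rag2-/-, Il13-deficient and Il4ra-deficient recipients. Other tissue markers were lower in the same Rag2-/- comparison: 6 of 15 epidermal (median -0.54), 7 of 10 adipocyte (median -1.10) and 5 of 10 skeletal muscle markers (median -0.72). The epidermal list averaged 4.95 to 5.39 in allo and 5.48 to 6.04 in syn Rag2-/- mice. In Il13-deficient recipients none of these 3 lists had a lower marker (medians 0.07, 0.22 and 0.31). Their part in the receptor result was not tested. Fzd4, Fzd5 and Fzd8 passed in none of the 3 comparisons, and Fzd4 stood at 0.51 (SE 0.27, adjusted p = 0.216) in Il13-deficient recipients.

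Fzd1 was lower in all 3 kinds of recipient, and in each the allo and syn mice did not overlap. In Rag2-/- mice its levels were 1.83, 1.10, 1.82, 1.78 and 1.62 with allo cells, against 2.38, 1.90, 2.17 and 2.45 with syn cells, a 1.51-fold difference (log2 -0.60, SE 0.18, limma adjusted p = 0.0199). Within number series 57 of these mice, the first digits of the mouse numbers, the difference was -0.69, and within series 61 it was -0.71. In Il13-deficient mice Fzd1 lay at 1.53, 0.98, 1.68 and 1.44 with allo cells, against 1.87, 2.42, 2.21 and 2.59 with syn cells (log2 -0.87, SE 0.19, adjusted p = 0.0033). In Il4ra-deficient mice it lay at 1.71, 1.92, 1.57 and 1.37 with allo cells, against 2.40, 2.52 and 2.17 with syn cells (log2 -0.72, SE 0.21, adjusted p = 0.0356; -0.58 within series 45 and -0.87 within series 57). The Rag2-/- call ended without 5704, 5700 or 6153 (adjusted p = 0.0638, 0.0639 and 0.0672) and after quantile normalization (0.0678). The Il13 call ended without 6229 and 6234 together (log2 -0.64, adjusted p = 0.0827) and in a fit of its 2 groups alone (0.0556). The Il4ra call ended without 4533, 5718, 5720, 4535 or 5717 (adjusted p = 0.0622 to 0.146), after quantile normalization (0.157), with array medians set to 0 (0.059) and with exact 0 kept (0.0518).

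Fzd6, which orients hair follicles in the mouse, and Fzd3, which acts redundantly with it in mouse planar polarity, were lower in 2 kinds of recipient. Fzd6 in Rag2-/- mice lay at 1.37, 0.41, 0.93, 1.13 and 1.35 with allo cells, against 1.76, 1.95, 2.07 and 1.94 with syn cells (log2 -0.89, SE 0.22, adjusted p = 0.00417; -1.04 within series 57 and -0.80 within series 61). In Il13-deficient mice it lay at 1.50, 0.56, 1.62 and 1.36 with allo cells, against 1.86, 2.03, 1.78 and 2.57 with syn cells (log2 -0.80, SE 0.23, adjusted p = 0.018). No allo mouse reached a syn mouse in either comparison. The Rag2-/- call of Fzd6 held without each single mouse (adjusted p up to 0.0147). The Il13 call ended without 6224 (0.0875), without 6234 (0.0792), without 6229 and 6234 (log2 -0.56, 0.184) and in a fit of its 2 groups alone (0.149). In Il4ra-deficient recipients the Fzd6 difference was -0.18 (95% interval -0.69 to 0.33, adjusted p = 0.698).

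Fzd3 in Il13-deficient mice lay at 0.97, 0.69, 0.67 and 0.47 with allo cells, against 1.77, 1.90, 2.33 and 2.63 with syn cells, a 2.75-fold difference without overlap (log2 -1.46, SE 0.33, adjusted p = 0.00395). It was among the 3 members called there without 6229 and 6234 (log2 -1.35, adjusted p = 0.0445). In Rag2-/- mice it lay at 0.72, -0.26, 1.85, 0.82 and 0.64 with allo cells, against 2.40, 1.37, 1.76 and 1.42 with syn cells. Mouse 6151 at 1.85 overlapped the syn mice, and the difference was -0.98 (SE 0.32, adjusted p = 0.0247; -1.61 within series 57 and -0.32 within series 61). That call ended without 5704 (log2 -0.73, adjusted p = 0.0784), 5700 (-0.76, 0.108) or 5703 (-0.98, 0.0501), in a fit of its 2 groups alone (0.0742) and with exact 0 kept (log2 -0.35, 0.286). The value of Fzd3 rests on the most complete of 3 probes; the others gave -0.26 and 0.06 in Rag2-/- mice and -1.04 and -1.07 in Il13-deficient mice. In Il4ra-deficient mice Fzd3 lay at 0.71, 1.31, 1.38 and 1.10 with allo cells, against 1.98, 1.55 and 2.70 with syn cells, without overlap (log2 -0.95, SE 0.36, adjusted p = 0.104). With values that many dim probes share treated as not measured, Fzd3 could not be tested.

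Fzd9 and Fzd10 were lower in Rag2-/- recipients. Fzd9 lay at 0.72, 1.48, 1.54, 1.34 and 1.72 with allo cells, against 3.33, 2.78, 2.82 and 2.78 with syn cells, a 2.97-fold difference (log2 -1.57, SE 0.41, adjusted p = 0.0068). The highest allo mouse stood more than 1 log2 unit below the lowest syn mouse, and the call held without each single mouse (adjusted p up to 0.0287). Within series 57 the difference was -1.88 and within series 61 it was -1.25. Fzd10 lay at 4.29, 4.03, 4.38 and 4.17 in the 4 allo mice measured, against 5.41, 4.82, 5.03 and 5.86 with syn cells (log2 -1.06, SE 0.27, adjusted p = 0.00728; -0.92 within series 57 and -1.58 within series 61). Its second, less complete probe stood at 0.90 in the same comparison, and the call ended with exact 0 kept, which averages both (log2 -0.47, adjusted p = 0.713), after quantile normalization (-0.67, 0.0736) and with each array as a sample (-0.99, 0.0558). In Il13-deficient recipients neither receptor passed (Fzd9 -0.43, Fzd10 -0.18). Without 6229 and 6234 these were -1.18 (adjusted p = 0.109) and -0.47 (adjusted p = 0.375), and without 5704 and 6224 they were -0.21 and 0.06. In Il4ra-deficient recipients the values were -1.07 (adjusted p = 0.155) and -0.37 (adjusted p = 0.562).

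Fzd2 and Fzd7, close relatives of Fzd1, were lower in Il13-deficient recipients. Fzd2 lay at -1.22, -1.32, -1.55 and -0.59 with allo cells, against -0.56, -0.43, -0.47 and -0.38 with syn cells (log2 -0.71, SE 0.22, adjusted p = 0.0326). Fzd7 lay at -0.14, -0.67, -0.01 and -0.19 with allo cells, against 0.15, 0.63, 0.47 and 0.54 with syn cells (log2 -0.70, SE 0.23, adjusted p = 0.0439). Both sets were free of overlap, by a margin of 0.03 for Fzd2. Without both 6229 and 6234 neither passed (log2 -0.65, adjusted p = 0.151 for Fzd2 and log2 -0.56, 0.231 for Fzd7). The Fzd2 call also ended without 6223, 6224, 6226, 6229, 6230 or 6234 (0.055 to 0.0908), and the Fzd7 call without 6223, 6224, 6232, 6229, 6230 or 6234 (0.0618 to 0.154). In a fit of these 2 groups alone neither passed (0.106 for Fzd2 and 0.0799 for Fzd7). The Fzd2 call ended as well on the single most complete probe (0.239) and with each array as a sample (0.0595), and the Fzd7 call with the number series as a block (0.0553), with exact 0 kept (0.0623) and with no filter (0.0587). The differences in Rag2-/- recipients were -0.03 for Fzd2 and -0.21 for Fzd7.

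**Figure D2:**
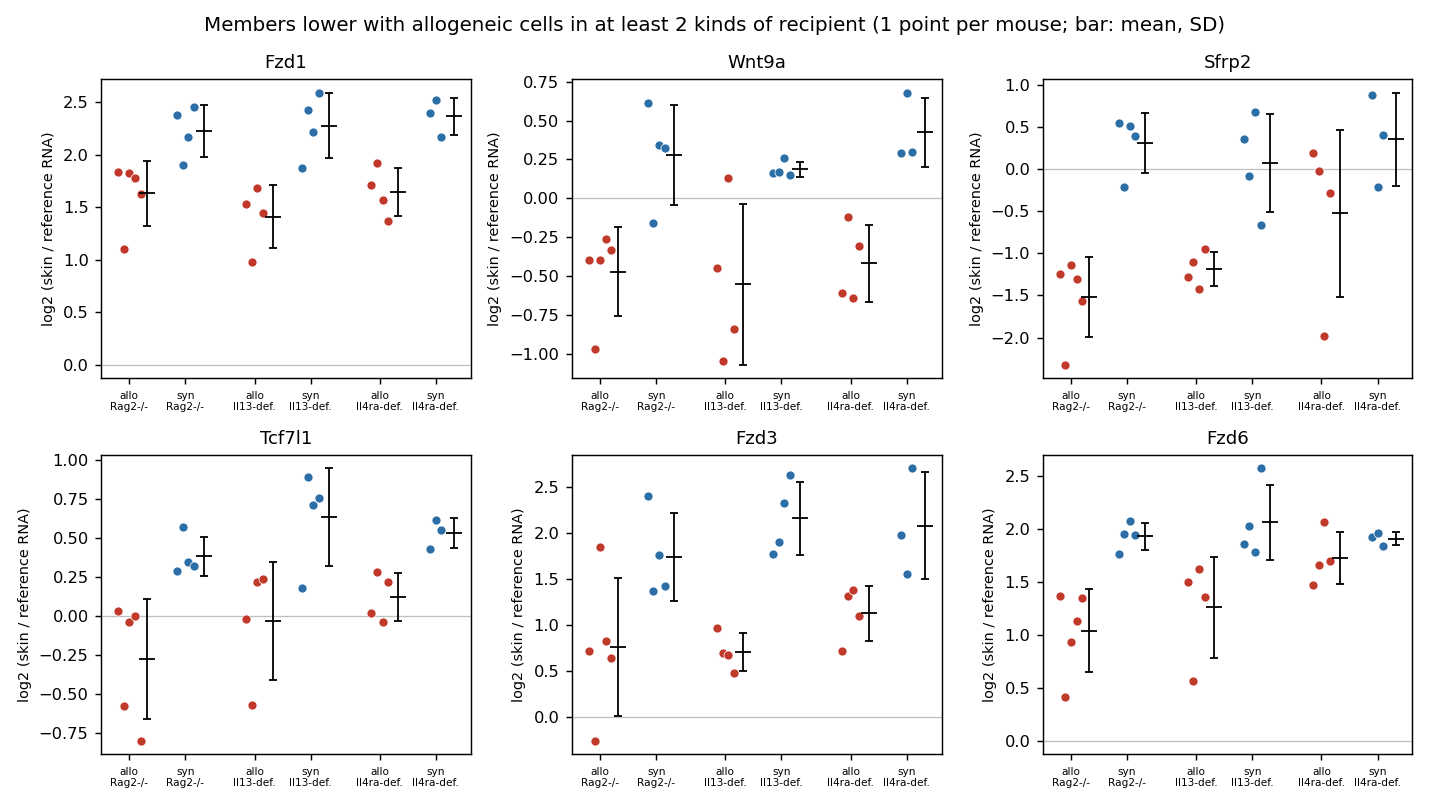
Levels (log2 of skin over reference RNA) of the 6 members lower with allogeneic cells in at least 2 kinds of recipient, 1 point per mouse, allo in red left of syn in blue; black bars are group mean and SD. For Fzd1 the allo mice lie below the syn mice in each recipient, and for Sfrp2 in Rag2-/- and Il13-deficient recipients, while 1 allo Rag2-/- mouse at 1.85 overlaps the syn mice for Fzd3.

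Among 19 Wnt ligand genes, 14 were tested. Wnt9a, known from joint formation in the mouse, was lower in all 3 kinds of recipient, Wnt5b and Wnt11, which often act without beta-catenin, were lower in Il13-deficient recipients, and Wnt10a was higher in Il4ra-deficient recipients. The other 10 tested ligands, among them Wnt3, Wnt4 and Wnt7b, passed in no donor comparison. Their differences in Rag2-/- recipients ran from -0.91 for Wnt10b (SE 0.70) to 0.06 for Wnt1. Wnt16, Wnt2b, Wnt3a, Wnt8a and Wnt8b were measured in 9, 10, 14, 12 and 13 of 24 mice and were not tested.

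Wnt9a lay at -0.40, -0.97, -0.40, -0.26 and -0.33 in allo Rag2-/- mice, against 0.61, -0.16, 0.34 and 0.32 in syn Rag2-/- mice (log2 -0.75, SE 0.20, adjusted p = 0.0097; -0.95 within series 57 and -0.65 within series 61). In Il13-deficient mice it lay at -0.45, -1.05, 0.13 and -0.84 with allo cells, against 0.16, 0.17, 0.26 and 0.15 with syn cells (log2 -0.74, SE 0.22, adjusted p = 0.0217). In Il4ra-deficient mice it lay at -0.61, -0.12, -0.64 and -0.31 with allo cells, against 0.29, 0.68 and 0.30 with syn cells (log2 -0.85, SE 0.23, adjusted p = 0.0266; -0.66 within series 45 and -0.97 within series 57). In none of the recipients did allo and syn mice overlap, though mouse 6226 at 0.13 came within 0.02 of a syn mouse. The Rag2-/- call held without each single mouse (adjusted p up to 0.0463). The Il13 call ended without 6224 (log2 -0.57, 0.0974), 6232 (-0.64, 0.0733), or 6229 and 6234 together (-0.76, 0.0843), and in a fit of its 2 groups alone (0.14). The Il4ra call ended without 4533, 5718 or 5717 (0.0726, 0.0802 and 0.137). A second, less complete probe of Wnt9a gave 0.24, -1.01 and 1.55 in Rag2-/-, Il13-deficient and Il4ra-deficient mice. With exact 0 kept as a value, which averages both probes, the differences were -0.33, -0.43 and 0.03, and none passed. With values shared by many dim probes treated as not measured, Wnt9a could not be tested.

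Wnt10a, expressed in epidermis and hair follicles and mutated in human ectodermal dysplasias, was the 1 member that rose with allogeneic cells. In Il4ra-deficient recipients it lay at 1.06, 1.10, 1.20 and 0.94 with allo cells, against 0.25, -0.19 and 0.10 with syn cells, a 2.03-fold difference (log2 1.02, SE 0.15, adjusted p = 7.4e-05). The groups did not overlap, the difference was 0.83 within series 45 and 1.12 within series 57, and the call held under each of 11 alternatives and without each of 7 mice (adjusted p up to 0.00392). In Rag2-/- mice the levels were 0.46, 0.52, 0.42, 0.57 and 0.31 with allo cells, against 0.28, 0.55, 0.40 and 0.11 with syn cells (log2 0.12, SE 0.13, adjusted p = 0.525). In Il13-deficient mice they were 0.86, 0.34, 0.79 and 0.59 with allo cells, against 0.34, 0.72, 0.60 and 0.46 with syn cells (log2 0.11, SE 0.13, adjusted p = 0.626). Porcn, the enzyme that adds the lipid to Wnt ligands, rose in the same Il4ra-deficient recipients by 1.28 (SE 0.24, adjusted p = 0.0015), with means of 0.77 in allo and -0.52 in syn mice.

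Wnt11 and Wnt5b were lower in Il13-deficient recipients, where 6234 was the highest mouse for both. Wnt11 lay at 1.24, 0.34, 1.70 and 1.07 with allo cells, against 1.85, 3.25 (6229), 2.03 and 4.34 (6234) with syn cells (log2 -1.78, SE 0.56, adjusted p = 0.0318). Wnt5b lay at 1.46, 1.76, 0.88 and 0.96 with allo cells, against 1.92, 1.92, 1.54 and 2.35 with syn cells, with 1 allo mouse above 1 syn mouse (log2 -0.67, SE 0.23, adjusted p = 0.0485). Without 6229 and 6234 the differences were -0.86 (adjusted p = 0.384) and -0.47 (adjusted p = 0.287). The Wnt11 call also ended without 6223, 6224, 6232, 6229 or 6234 (0.0525 to 0.133) and in a fit of its 2 groups alone (0.107), and that of Wnt5b without 6223, 6226, 6232, 6225, 6229 or 6234 (0.0539 to 0.157) and in such a fit (0.185). For Wnt5b it ended too with exact 0 kept (0.078), on a single probe (0.0515), with no filter (0.0645) and with robust eBayes (0.0539). In Rag2-/- recipients Wnt11 stood at -0.17 and Wnt5b at 0.15, and in Il4ra-deficient recipients at -0.06 and -0.08.

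Of 9 secreted inhibitors 7 were tested, and Sfrp2 was lower in 2 kinds of recipient and Sfrp1 in 1. The Sfrp proteins resemble the ligand-binding domain of Frizzled receptors and can bind Wnt ligands outside the cell. Sfrp2, a gene of dermal fibroblasts, lay at -1.25, -2.32, -1.14, -1.31 and -1.56 in allo Rag2-/- mice, against 0.54, -0.21, 0.51 and 0.39 in syn Rag2-/- mice. This was a 3.54-fold difference (log2 -1.82, SE 0.36, adjusted p = 0.000891), of -2.07 within series 57 and -1.72 within series 61, and it passed without each single mouse (adjusted p up to 0.00456) and under each of 12 alternatives (up to 0.0036). In Il13-deficient mice Sfrp2 lay at -1.28, -1.10, -1.42 and -0.95 with allo cells, against 0.36, -0.08, 0.68 and -0.66 with syn cells (log2 -1.26, SE 0.38, adjusted p = 0.027). All allo mice lay below all syn mice in both kinds of recipient. Without 6229 and 6234 the Il13 difference was -1.71 (adjusted p = 0.0206), while without 6223, 6224, 6226, 6225 or 6230 alone it did not pass (adjusted p = 0.0519 to 0.085). In Il4ra-deficient mice Sfrp2 lay at 0.19, -0.03, -1.98 and -0.28 with allo cells, against 0.88, -0.22 and 0.40 with syn cells (log2 -0.88, SE 0.41, adjusted p = 0.193). Beside it, 2 of 9 fibroblast markers fell (Mfap5 and Dpt) and 1 rose (Thy1, which T cells also express) in Rag2-/- recipients, with a median of -0.31. The fibroblast list averaged 0.93 to 2.06 in allo and 1.49 to 1.99 in syn Rag2-/- mice, and its part in the Sfrp2 result was not tested.

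Sfrp1 lay at 3.46, 3.15, 3.57, 3.36 and 3.93 in allo Rag2-/- mice, against 4.04, 3.82, 3.92 and 4.39 in syn Rag2-/- mice (log2 -0.55, SE 0.18, adjusted p = 0.0294; -0.62 within series 57 and -0.77 within series 61). One allo mouse, 6154 at 3.93, overlapped the syn mice. The call ended without 5701, 5704, 6152, 5700 or 6153 (adjusted p = 0.0529 to 0.112), after quantile normalization (0.234) and with each array as a sample (0.0574). A second, less complete probe stood at 0.00, and with exact 0 kept the gene's difference was 0.02 (adjusted p = 0.97). In Il13-deficient and Il4ra-deficient recipients Sfrp1 stood at -0.46 (adjusted p = 0.118) and -0.25 (adjusted p = 0.50).

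Sfrp4, Dkk1 and Wif1, inhibitors named whatever their result, passed in no donor comparison. Sfrp4 lay at 3.60, 0.84, 3.58, 3.96 and 4.42 with allo cells, against 4.77, 4.58, 4.15 and 4.27 with syn cells in Rag2-/- mice (log2 -1.16, SE 0.59, adjusted p = 0.147). Its differences were -0.49 (SE 0.62) in Il13-deficient and -1.06 (SE 0.67) in Il4ra-deficient recipients, and the low allo mice were 5704 at 0.84, 6224 at 1.27 and 5718 at 2.13. Without 5704 and 6224 Sfrp4 stood at -0.56 in Rag2-/- and at 0.11 in Il13-deficient recipients, and without 6229 and 6234 at -1.10 in Il13-deficient recipients, with no call in these fits (adjusted p = 0.254, 0.899 and 0.376). Dkk1, which blocks Lrp5 and Lrp6, was measured in 15 of 24 mice; its differences were 0.43 (0.13 without 5704), -0.32 and 0.57, and the 95% intervals held 0 (-0.33 to 1.20, -1.18 to 0.53 and -0.36 to 1.51). Wif1, which binds Wnt ligands, was measured in 14 mice and was not tested. Its values were 2.72, 1.59, 3.36 and -0.21 in 4 of 5 allo Rag2-/- mice, against 1.90 and 3.79 in 2 of 4 syn mice, and 3.21, 4.14, 2.66 and 3.59 in all 4 allo Il4ra-deficient mice, against none measured in 3 syn mice. In Il13-deficient mice it was measured at 3.36, 3.06 and 2.35 in 3 of 4 allo mice, against 4.83 in 1 of 4 syn mice, which was 6229. Dkk2, Dkk3 and Sfrp5 ran from -0.56 to 0.28 over the 3 donor comparisons without a call, and Dkk4 was measured in 9 mice.

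The co-receptors and R-spondins did not pass in any donor comparison. Lrp5 stood at -0.36, -0.10 and -0.15, and Lrp6 at -0.14, -0.06 and -0.21, in Rag2-/-, Il13-deficient and Il4ra-deficient recipients. R-spondins strengthen Wnt signals by removing the ubiquitin ligases Znrf3 and Rnf43 from the surface. Rspo1 stood at -0.53, -0.76 and -1.03 (adjusted p = 0.352, 0.208 and 0.189), and Rspo2 at -0.99, -1.40 and -0.91 (adjusted p = 0.27, 0.216 and 0.486). Rspo3 was measured in 11 mice and was not tested. These were 5 of 5 allo and 0 of 4 syn mice among the Rag2-/- recipients. Among Il13-deficient recipients they were 1 of 4 allo and 3 of 4 syn mice, and among Il4ra-deficient recipients 1 of 4 allo and 1 of 3 syn mice.

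Among the nuclear factors, Tcf7l1 was lower in 2 kinds of recipient and Lef1 in 1. Tcf7l1, which mostly represses targets and is expressed in hair follicle stem cells, lay at 0.03, -0.58, -0.04, 0.00 and -0.80 in allo Rag2-/- mice, against 0.29, 0.57, 0.35 and 0.32 in syn Rag2-/- mice. The groups did not overlap (log2 -0.66, SE 0.19, adjusted p = 0.0128; -0.68 within series 57 and -0.60 within series 61), and the call held without each single mouse (adjusted p up to 0.0389). It ended on the single most complete probe (log2 -0.44, adjusted p = 0.146) and with values shared by many dim probes as not measured (-0.44, 0.118). In Il13-deficient mice the levels were -0.02, -0.57, 0.22 and 0.24 with allo cells, against 0.18, 0.89, 0.71 and 0.76 with syn cells, with 2 allo mice above the lowest syn mouse (log2 -0.67, SE 0.20, adjusted p = 0.0249). That call ended without 6224, 6229, 6230 or 6234 (0.0535 to 0.114), without 6229 and 6234 together (log2 -0.48, 0.219) and in a fit of its 2 groups alone (0.16). In Il4ra-deficient mice the levels were 0.02, 0.28, -0.04 and 0.22 with allo cells, against 0.43, 0.62 and 0.55 with syn cells (log2 -0.41, SE 0.22, adjusted p = 0.244). Basal keratinocyte markers had 3 of 10 lower in Rag2-/- recipients (median -0.40) and 0 of 10 in Il13-deficient recipients (median 0.17), and their part in the Tcf7l1 result was not tested.

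Lef1, a factor of the hair matrix and dermal papilla that T cells also express, was lower with allogeneic cells in Il13-deficient recipients, where the spread lay among the syn mice. It lay at -2.37, -2.24, -2.87 and -2.46 with allo cells, against -2.30, 1.17 (6229), -0.84 and 1.82 (6234) with syn cells, a 5.48-fold difference with overlap (log2 -2.45, SE 0.55, adjusted p = 0.00348). Without 6229 and 6234 it was -0.92 (adjusted p = 0.105), and in a fit of these 2 groups alone it did not pass (0.123). In Rag2-/- mice Lef1 lay at -1.79, -1.56, -1.46, -1.62 and -2.46 with allo cells, against -2.15, -2.32, -2.25 and -1.78 with syn cells (log2 0.35, SE 0.52, adjusted p = 0.662). In Il4ra-deficient mice it lay at -2.39, -2.26, -2.43 and -3.14 with allo cells, against -2.71, -3.36 and -2.49 with syn cells (log2 0.30, SE 0.60, adjusted p = 0.808). Of the hair follicle markers, 8 of 10 tested fell in Il13-deficient recipients (median -3.91), while 1 of 10 rose in Rag2-/- recipients (Krt35, median over the list 1.10) and 0 of 10 passed in Il4ra-deficient recipients. In the same Il13-deficient recipients 3 of 7 melanocyte markers fell (median -1.58) and 2 of 6 dermal papilla markers fell (Crabp1 and Alpl, median -0.52). The dermal papilla list averaged -1.11 to -0.13 in allo and -0.50 to -0.26 in syn Il13-deficient mice. T cell markers rose in 10 of 12 cases and fell in 1. The part of these lists in the Lef1 result was not tested. Ctnnb1 itself stood at 0.30, -0.51 and -0.01 in the 3 kinds of recipient without a call (adjusted p = 0.204, 0.0564 and 0.984), although without 5704 and 6224 its Il13 difference was -0.63 (adjusted p = 0.033). Tcf7l2 ranged from -0.22 to 0.01.

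**Figure D3:**
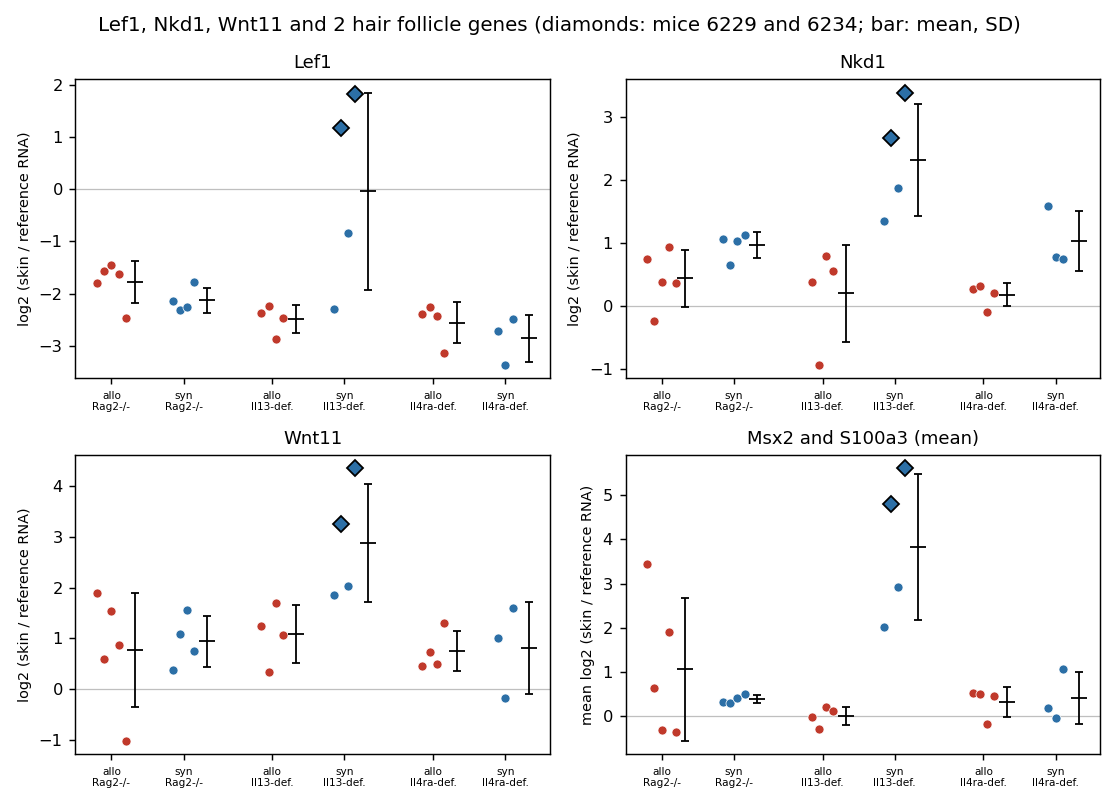
Levels (log2 of skin over reference RNA) of Lef1, Nkd1 and Wnt11 and the mean of the hair follicle markers Msx2 and S100a3, 1 point per mouse, allo in red left of syn in blue; black bars are group mean and SD. Diamonds mark the syn Il13-deficient mice 6229 and 6234, which are the 2 highest mice in each panel, with Lef1 at 1.17 and 1.82.

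Nkd1, a target of the pathway that binds Dishevelled and dampens the signal, had the lowest adjusted p of the members in Il13-deficient recipients. It lay at 0.38, -0.93, 0.79 and 0.55 with allo cells, against 1.35, 2.66 (6229), 1.87 and 3.38 (6234) with syn cells, a 4.34-fold difference without overlap (log2 -2.12, SE 0.37, adjusted p = 0.000326). It passed without each single mouse (adjusted p up to 0.00196) and without 6229 and 6234 together (log2 -1.41, adjusted p = 0.0212). A second, less complete probe gave -1.66. Nkd1 in Rag2-/- recipients stood at -0.53 (adjusted p = 0.285) and in Il4ra-deficient recipients at -0.86 (adjusted p = 0.192), where the levels of 0.27, 0.32, -0.09 and 0.21 in allo mice lay below those of 1.58, 0.77 and 0.74 in syn mice.

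Axin2, the widely used readout of canonical signalling and part of the complex that destroys beta-catenin, passed in no donor comparison. In Rag2-/- mice it lay at 1.66, 0.36, 1.70, 1.89 and 1.19 with allo cells, against 1.87, 1.91, 2.31 and 2.22 with syn cells (log2 -0.72, 95% interval -1.50 to 0.06, adjusted p = 0.16). In Il13-deficient mice it lay at 1.97, 0.24, 2.70 and 1.87 with allo cells, against 2.67, 2.03, 2.74 and 1.86 with syn cells (log2 -0.63, 95% interval -1.45 to 0.19, adjusted p = 0.312). In Il4ra-deficient mice it lay at 1.70, 2.18, 1.81 and 1.99 with allo cells, against 2.16, 3.19 and 2.21 with syn cells (log2 -0.60, 95% interval -1.48 to 0.29, adjusted p = 0.415). The lowest allo mice were 5704 and 6224, and without both the differences were -0.47 (adjusted p = 0.19) in Rag2-/- and -0.14 (adjusted p = 0.8) in Il13-deficient recipients. Without 6229 and 6234 the Il13 difference was -1.01 (adjusted p = 0.193). Axin1, which is not itself a target, stood at 0.15, 0.18 and 0.26, and Nkd2 at -1.12, -1.85 and -0.38 with SE of 0.71, 0.82 and 0.75.

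**Figure D4:**
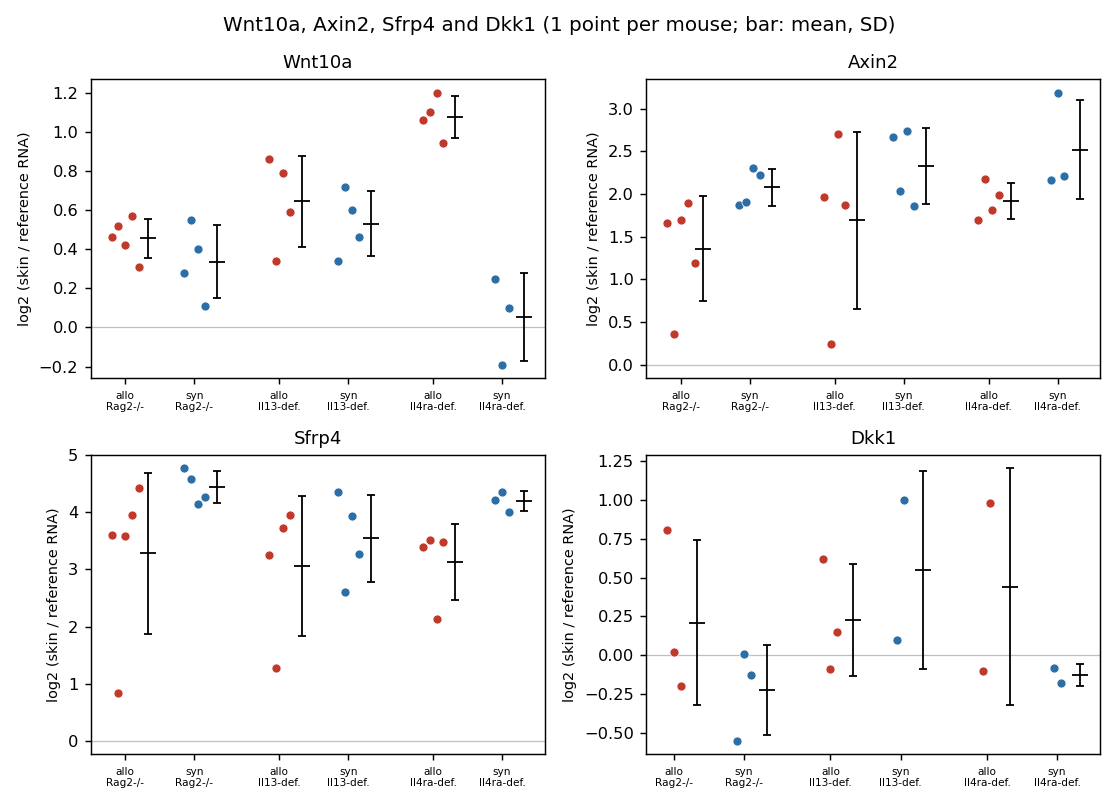
Levels (log2 of skin over reference RNA) of Wnt10a, Axin2, Sfrp4 and Dkk1, 1 point per mouse, allo in red left of syn in blue; black bars are group mean and SD. The 4 allo Il4ra-deficient mice lie at 0.94 to 1.20 for Wnt10a, above all 3 syn mice of the same genotype at -0.19 to 0.25, while Axin2 overlaps between allo and syn in each kind of recipient.

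Of 87 further genes of the pathway, 80 were tested. In Rag2-/- recipients 6 were higher and 10 lower with allogeneic cells, in Il13-deficient recipients 2 and 17, and in Il4ra-deficient recipients 3 and 1. In Rag2-/- recipients these shares, 7.5% higher and 12.5% lower, lay below those of all genes tested (12.6% and 15.6%), and in Il4ra-deficient recipients 3.75% and 1.25% lay below 5.91% and 3.31%. In Il13-deficient recipients 2.5% were higher and 21.2% lower, beside 9.19% and 7.11% of all genes. Among 20 secretion and surface genes 4 fell in Rag2-/- recipients, including the glypican Gpc4 (-0.75, SE 0.17), the Wnt inhibitor Apcdd1 (-1.73, SE 0.41) and the R-spondin receptor Lgr4 (-1.28, SE 0.31). In Il13-deficient recipients 8 of them fell, including Znrf3 (-1.18), Gpc4 (-0.71) and Rnf43 (-1.02). In the beta-catenin destruction complex and relay list, 2 of 19 fell in Rag2-/- recipients, the Gsk3 inhibitors Frat2 (-0.96, SE 0.16) and Frat1 (-0.64), and the casein kinase gene Csnk1d rose (0.42); Dvl2 alone of the 19 fell in Il13-deficient recipients (-0.49). Among 13 nuclear cofactors 3 fell and 2 rose in Rag2-/- recipients, with the beta-catenin inhibitor Ctnnbip1 at -0.69 and the co-repressor Tle1 at -0.46 against the co-activator Bcl9 at 0.80, and Ctnnbip1 (-0.68) and Tle2 (-0.55) fell in Il13-deficient recipients. In the planar polarity list Celsr1 (-0.66) fell in Rag2-/- recipients, Prickle2 (-1.29) and Prickle1 (-0.85) fell in Il13-deficient recipients, and Vangl1 (0.51) rose in Il4ra-deficient recipients.

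The list of 17 further target genes tested moved in both directions. In Rag2-/- recipients 3 rose and 0 fell: Id2 (1.52, SE 0.18), the adhesion receptor gene Cd44 (1.70, SE 0.27) and Myc (0.38, SE 0.14). These shares of 17.6% and 0% stand beside 12.6% of all genes higher and 15.6% lower. Cd44 and Id2 are also expressed by activated leukocytes, and 11 of 12 T cell and 9 of 10 macrophage markers tested rose in the same comparison; the part of these cells in the 2 genes was not tested. In Il13-deficient recipients 2 rose, Id2 among them (1.05), and 4 fell, including Mycn (-4.12, SE 0.68) and the hair follicle gene Msx2 (-3.61, SE 0.82). These shares of 11.8% and 23.5% stand beside 9.19% of all genes higher and 7.11% lower. Msx2, a marker by which 6229 and 6234 stood apart, lay at 5.41 and 6.60 in them. In the other syn Il13-deficient mice, 6225 and 6230, it lay at 1.99 and 2.00. Fits without 6229 and 6234 are not given for this list. In Il4ra-deficient recipients Cd44 rose (1.65, SE 0.31) and Jun fell (-0.62, SE 0.15). Interferon-gamma response genes rose in 11 of 11 cases in each of the 3 kinds of recipient, with medians of 2.74, 3.83 and 2.88.

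Whether the donor differences themselves differed between recipients was tested for the 43 members in the same limma fit, and none passed. Between Il13-deficient and Rag2-/- recipients 0 members were called, beside 0.0135% of all genes called in either direction. An unadjusted p under 0.05 was found for 7 of the 43 members and for 2373 of all 14783 genes tested. Lef1 had the largest such difference (-2.80, SE 0.76, adjusted p = 0.134), followed by Wnt11 (-1.61, SE 0.77, adjusted p = 0.306) and Nkd1 (-1.59, SE 0.52, adjusted p = 0.179), and without 6229 and 6234 these were -1.27, -0.69 and -0.88 (adjusted p = 0.763, 0.992 and 0.967). Without 6225 alone, 3 members passed, and the share of all genes in that fit is not given here. Between Il4ra-deficient and Rag2-/- recipients 0 members were called, beside 0% of all genes. Here 4 of the 43 members had an unadjusted p under 0.05, beside 730 of all 14783 genes tested. Wnt10a stood at 0.90 there (SE 0.19, 95% interval 0.50 to 1.31, adjusted p = 0.743). Both tests use the same Rag2-/- mice. For the genes lower in several recipients, the interval of the difference between Il13-deficient and Rag2-/- recipients was -0.83 to 0.29 for Fzd1, -0.61 to 0.63 for Wnt9a and -0.54 to 1.66 for Sfrp2.

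Recipients were also compared under the same donor. With allo cells, Il4ra-deficient mice had higher Wnt10a than Rag2-/- mice (0.94 to 1.20 against 0.31 to 0.57, log2 0.62, SE 0.13, limma adjusted p = 0.0255). Wnt10a was the 1 member called there, beside 0.805% of all genes in either direction. An unadjusted p under 0.05 was found for 7 of 43 members and for 1774 of all 14783 genes tested. The Wnt10a call ended with the number series as a block (log2 0.47, adjusted p = 0.319) and without any 1 of 8 of the 9 mice, 4533, 4534, 5718, 5720, 5701, 5704, 6151 or 6154 (adjusted p = 0.059 to 0.102). In the remaining 3 comparisons 0 members passed in the limma fit. Il13-deficient allo mice against Rag2-/- allo mice had 1 member (Wnt4, 0.43) with an unadjusted p under 0.05, beside 850 of all 14783 genes, and 0% of all genes called. Il4ra-deficient syn mice against Rag2-/- syn mice had 1 such member (Fzd5, -1.05), beside 430 of all 14783 genes, and 0% of all genes called.

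Between Il13-deficient and Rag2-/- syn mice 0 members were called, beside 0.284% of all genes. Of all 14783 genes tested, 3006 had an unadjusted limma p under 0.05, and of the 43 members 7 did. These 7 were Ctnnb1 (0.71), Lef1 (2.09), Nkd1 (1.35), Wnt11 (1.93), Fzd2 (0.71), Wnt5b (0.50) and Wnt6 (0.61), with adjusted p from 0.0706 to 0.234. Ctnnb1 was 0.59, 1.30 (6229), 0.65 and 1.51 (6234) in syn Il13-deficient mice, against 0.13, 0.36, 0.37 and 0.33 in syn Rag2-/- mice. The count of members called was 4 without 6225, 4 without 6230, and 0 without 6229 and 6234. In the fit without both 6229 and 6234, 0.021% of all genes were higher and 0% lower. The shares of all genes in the fits without 6225 or 6230 are not given here, so these counts cannot be set against them. Mice 6225 and 6230 had the lower means of Msx2 and S100a3 in that group (2.01 and 2.92). For Krt25, Krt27 and Krt35, however, 6230 was the highest mouse of the group (6.89, 6.36 and 5.08). All Il13-deficient mice belong to number series 62 and no Rag2-/- mouse does, so genotype and series cannot be told apart here.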

How the data were processed

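Skin RNA (Cy3) of 24 mice was set against reference RNA (Cy5) on 28 Agilent 2-colour arrays; mice with 2 or 3 arrays entered as their mean. The files deposited by the authors hold a log2 ratio per probe, with array medians between -0.14 and 0.04. Which software, background correction, normalization or filters were used is not stated in the labels. That the scale is log2 was read from the spacing of recurring dim values: spacings of 2, 1.17 and 0.83 occurred in 53, 38 and 30 of 5320 pairs, against a median of 6. The deposited sign runs as reference over skin and was turned, as the dyes and the epidermal genes require; after turning, 3 of 18 genes of dividing or embryonic cells lay above 0. Exact 0 was read as not measured. Spot intensities were not analysed here, so dim probes carry no bounds, and precision depends on how many mice were measured.

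The annotation names 1 gene for 32664 of 41174 probes, several for 45 and none for 8465. For each gene, the probes measured in the most mice, with the same mice missing, were averaged. Testing required values in at least 2 mice per group (14783 of 19532 genes, of which 11852 were measured in all mice). A single limma model of all 6 groups (version 3.58.1, R 4.3.3, lmFit and eBayes, two-sided) gave all p-values, adjusted by Benjamini-Hochberg over all genes with 0.05 as threshold; it was tested on simulated data. Alternatives changed 1 choice at a time, left out single mice or left out a pair of mice; keeping exact 0 as a value also brought all probes of a gene into its mean and all 19532 genes into the test.

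Members called in a donor comparison, or in its difference between recipients, were given mouse by mouse, at most 12 per comparison, together with Axin2, Lef1, Dkk1, Sfrp2, Sfrp4 and Wif1. In the further pathway lists the 3 genes with the smallest p were named where they passed. The members and lists were chosen with earlier results of these data known. Mouse 5718, labelled IL14Ra, was taken as Il4ra-deficient, since the series design names IL4Ra and no other receptor. Promoters come from RefSeq (GRCm38.p6); the array values carry no coordinates.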

Additional observations from a re-analysis of the deposited data

Results flagged for a closer look

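Over 91 groups of 4 or 5 mice examined for members given mouse by mouse, 7 held 1 mouse farther from the rest than Dixon's 95% critical value allows, where chance gives about 1 in 20 groups. Allo Rag2-/- mouse 5704 was low for Fzd1 (1.10, the others 1.62 to 1.83), Sfrp4 (0.84, the others 3.58 to 4.42) and Wnt9a (-0.97, the others -0.40 to -0.26). Allo Rag2-/- mouse 6151 was low for Wnt5b (1.15, the others 1.64 to 1.81). Syn Rag2-/- mouse 5700 was low for Fzd7 (-0.76, the others 0.17 to 0.29) and high for Fzd9 (3.33, the others 2.78 to 2.82). Allo Il4ra-deficient mouse 5718, whose label names IL14Ra, was low for Sfrp4 (2.13, the others 3.40 to 3.51).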

How the results depend on the processing

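With exact 0 kept as a value, 5 members were called in Rag2-/- and 1 in Il4ra-deficient recipients. Of all genes, 8.03% were higher and 7.7% lower there in Rag2-/-, and 3.41% and 1.09% in Il4ra-deficient recipients. Sfrp1 (0.02, Rag2-/-) and Wnt9a (0.03, Il4ra-deficient) changed sign. This setting averages all probes of a gene and tests all 19532 genes. In fits of only the 2 groups of a comparison, 3 members were called in Il13-deficient and 5 in Il4ra-deficient recipients. Of all genes, 4.82% were higher and 1.08% lower in that Il13 fit, and 8.35% and 7.03% in that Il4ra fit. Without both 6229 and 6234 there were 3 members in Il13-deficient recipients, beside 6.48% of all genes higher and 3.53% lower. Between syn Il13-deficient and syn Rag2-/- mice, 1 member was called with repeated dim values as not measured, which left 28 members tested. With each array as a sample 3 were called there. Of all genes, 0.443% were higher and 0.716% lower with dim values left out, and 1.07% and 1.16% with each array as a sample. With the number series as a block, 0 members were called between allo Il4ra-deficient and allo Rag2-/- mice. That fit could not be made for Il13-deficient against Rag2-/- mice of the same donor. Leaving out 1 mouse at a time gave 6 to 10 members in Rag2-/-, 6 to 13 in Il13-deficient and 1 to 3 in Il4ra-deficient recipients, 0 to 3 for the difference of donor effects between Il13-deficient and Rag2-/- recipients, 0 to 1 for Il4ra-deficient against Rag2-/- allo mice and 0 to 4 for Il13-deficient against Rag2-/- syn mice. Shares of all genes in the fits without 1 mouse are not given here, so these ranges cannot be set against them. Over the other settings, among them quantile normalization, array medians set to 0, a single probe per gene, other filters and robust eBayes, each count was within 1.5 times of that reported or stayed at 0. For the calls of single members, 251 values under other settings kept call and sign, 49 lost the call and 2 changed sign; with single mice left out, 144 kept it and 63 lost it. Leaving out 5704 and 6224 was chosen after seeing the data and gave 8 members in Rag2-/- and 8 in Il13-deficient recipients. All of these were lower, beside 13.7% and 4.95% of all genes lower in the same fit. The cause of these changes was not tested. No paired analysis was possible because each mouse number occurs in 1 group.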
